A study of Danio rerio with 4 samples.

Results

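The genes described here are 47 zebrafish genes of leukocyte signalling and effector function, chosen by symbol and set apart as pan-leukocyte, neutrophil and macrophage genes. A table row belonged to a gene when the name table gave its Ensembl identifier that symbol, and a name without a paralog letter counted for the paralogs. Of the 47 genes, 45 matched, with 53 of the 28346 rows of the tables, here called entries. They comprise 41 pan-leukocyte, 3 neutrophil and 9 macrophage entries. No row carried the symbol mpx or cpa5, a neutrophil peroxidase and a carboxypeptidase used as granulocyte or mast cell markers. Members with several rows, such as FERMT3, PRKCD and MPEG1, are told apart by their identifiers. The libraries came from the caudal hematopoietic tissue of larvae at 5 days post fertilization, genotype wildtype and untreated, that carried both Tg(kdrl:GFP) and Tg(lyve1b:DsRed), in which an endothelial promoter drives GFP and a venous and lymphatic one drives DsRed. Cells positive for both reporters made 2 vein libraries, and cells with GFP alone made 2 non-vein libraries. The number of larvae behind each library is not given by the labels.

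The caudal hematopoietic tissue is the site where blood stem and progenitor cells settle and expand in the zebrafish larva, much as the fetal liver serves mammals, and it lies around a venous plexus. Leukocytes pass signals from surface receptors through tyrosine kinases, phosphatases and adaptors to an actin cortex with its own set of regulators, which drives crawling, adhesion and engulfment. Neutrophils add lysozyme and other granule proteins, macrophages add the receptor for colony-stimulating factor and complement components, and the phagocyte oxidase makes superoxide in both.

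The 4 libraries held between 15672159 and 18862102 counts, and levels are given as CPM, counts set against the library total and scaled by the trimmed mean of M values. In that scale the limit that a count of 0 allows was 0.152 to 0.196 CPM in a library, for counting error only. lyve1b, the gene behind the DsRed reporter, stood at 53.7 and 217 CPM in non-vein and at 1953 and 1636 CPM in vein. kdrl stood at 1998 and 2956 CPM in non-vein and at 10500 and 7933 CPM in vein, so neither group lacked it. The labels number the libraries 1 and 2 within each group but do not say that they came from separate sorts, and p-values therefore reflect no more than the spread of these libraries, which may be technical.

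Most leukocyte entries were lower in the vein libraries, and 1 abundant entry, the proteoglycan gene srgn, went the other way. Of the 53 entries, 43 passed the filter on low counts. Among these 43, 23 were lower and 1 was higher in vein past an adjusted p of 0.05 (edgeR quasi-likelihood test, Benjamini-Hochberg adjustment over all 15953 genes tested). Of all genes tested, 7.33% were lower and 4.11% were higher by the same rule, and 11.4% changed in either direction. The median log2 fold of the 43 was -3.50, also with entries at 0 in vein set at the bound given below, beside 0.01 over all genes tested. Both vein libraries lay below both non-vein libraries in 36 of the 43 and above them in 3, whereas the same held for 33.1% and 29% of all genes tested. In bulk libraries, fewer cells of a type and less RNA per cell cannot be told apart.

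For 7 of the entries those counts are no evidence, because they were put on the list for having some of the lowest folds in these libraries. They are IRF4, cd74b, GRAP2, rasal3, the PRKCD entry ENSDARG00000009208, FMNL1 and unc13d, and none had a count in a vein library. They are given below as levels and as a bound on the fold, set against 3 counts over the vein group. Without them, 36 tested entries remained, of which 16 (44.4%) were lower, 1 (2.78%) was higher and 19 did not pass, with a median log2 fold of -2.83. In the 16 lower entries the mean vein level was between 1.11% and 23.1% of the mean non-vein level. Of the 24 entries past the threshold, 21 also passed in every one of the 15 alternative settings that gave them a value. The 24 include the 7 listed for their fold, whose calls are no evidence here either. The exceptions were PTPN6, FMNL1 and WAS, and none of the 24 changed direction. Among entries not listed for their fold, the exceptions were PTPN6 and WAS.

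**Figure D1:**
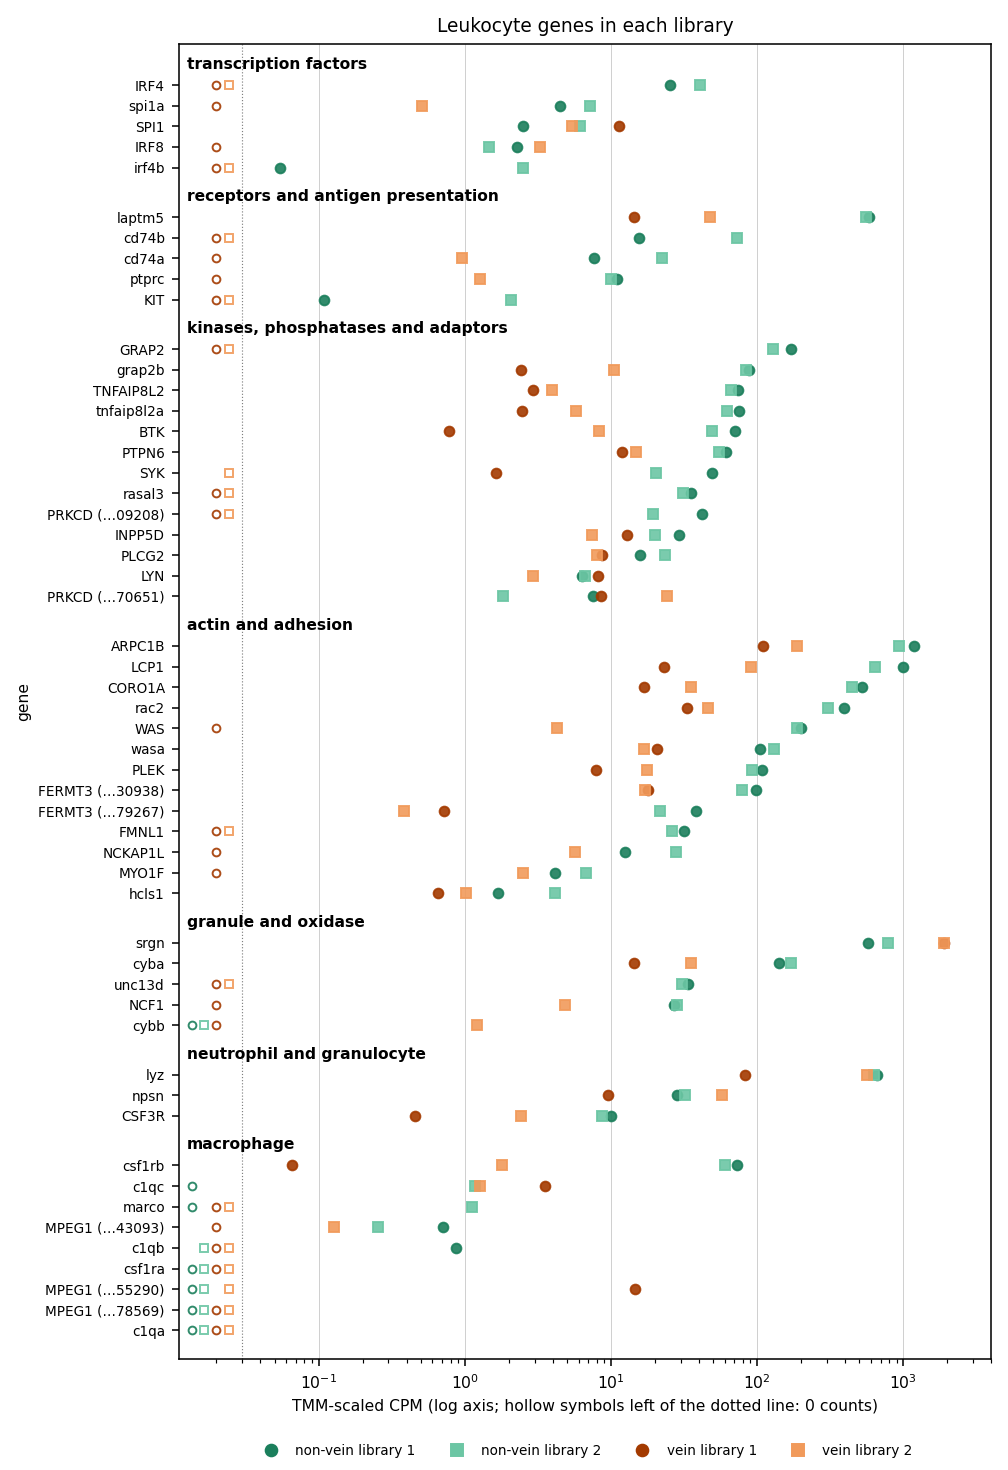
TMM-scaled CPM (log axis) of each of the 53 entries in each of the 4 libraries, grouped by role; hollow symbols left of the dotted line are counts of 0, and each symbol is 1 library. Most entries have both vein libraries to the left of both non-vein libraries, srgn lies to the right at 1893 and 1892 CPM, and lyz and npsn are split between the vein libraries.

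**Figure D2:**
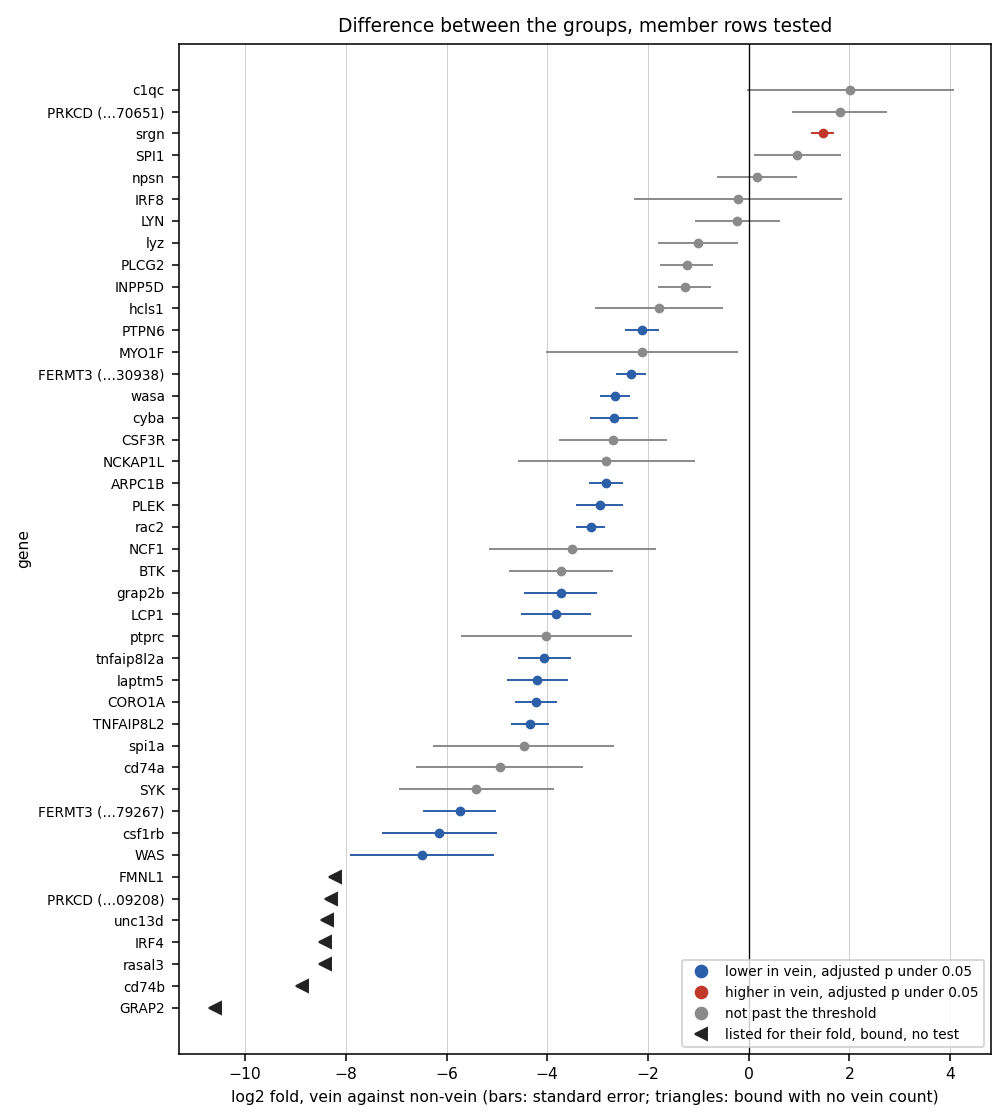
Log2 fold of vein against non-vein for the 43 entries tested, with bars for the standard error; colour gives the side of the threshold, and triangles are bounds for the 7 entries with no vein count. Most entries lie left of 0, and srgn at 1.47 is the 1 entry called higher, while c1qc at 2.02 and a PRKCD entry at 1.81 have wider bars and did not pass.

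The transcription factors were at low levels and gave no call beyond the entry listed for its fold. IRF4, a regulator of lymphocyte and macrophage differentiation in mammals, had 25.5 and 40.5 CPM in non-vein but no count in vein, at least 343-fold lower. The row of its paralog irf4b did not pass the filter, with 0.0543 and 2.49 CPM in non-vein and no count in vein. The PU.1 genes, which direct myeloid differentiation, went separate ways in level. spi1a stood at 4.46 and 7.16 CPM in non-vein and at 0 and 0.510 CPM in vein (log2 fold -4.47, SE 1.80, edgeR adjusted p = 0.167). The SPI1 row stood at 2.50 and 6.10 CPM in non-vein and at 11.4 and 5.42 CPM in vein (log2 fold 0.96, SE 0.87, edgeR adjusted p = 0.534). The groups did not overlap for spi1a and did for SPI1, and neither passed the test. Without vein library 2, spi1a had no vein count left, so passing in that setting is no support. spi1a passed in 3 of the 15 alternatives, that one among them. IRF8, required for macrophage development in zebrafish, stood at 2.28 and 1.47 CPM in non-vein and at 0 and 3.25 CPM in vein (log2 fold -0.21, SE 2.07, edgeR adjusted p = 0.965). Its vein libraries lay on either side of both non-vein libraries.

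Among receptors and genes of antigen presentation, laptm5 was the most abundant and the one that passed the test apart from cd74b. laptm5 encodes a lysosomal membrane protein of blood cells that lowers antigen receptor levels. It stood at 586 and 555 CPM in non-vein and at 14.3 and 47.7 CPM in vein, 18.4-fold lower (log2 fold -4.20, SE 0.61, edgeR adjusted p = 0.0183). The non-vein libraries were close together, and vein library 2 was above vein library 1, so the log2 fold came to -3.58 without vein library 1 and to -5.32 when library 2 was left out. The invariant chain, which guides class II molecules to the endosome, has 2 genes. cd74b stood at 15.65 and 72.9 CPM in non-vein and had no count in vein, at least 467-fold lower. The bound for cd74b was 162-fold without non-vein library 2 and 753-fold without non-vein library 1. cd74a stood at 7.72 and 22.3 CPM in non-vein and at 0 and 0.957 CPM in vein (log2 fold -4.94, SE 1.66, edgeR adjusted p = 0.110). Both genes were higher in non-vein library 2 than in library 1. ptprc encodes CD45, the phosphatase on all leukocytes. It stood at 10.98 and 9.96 CPM in non-vein and at 0 and 1.28 CPM in vein (log2 fold -4.02, SE 1.70, edgeR adjusted p = 0.183). Without vein library 2 neither cd74a nor ptprc had a vein count left, so passing in that setting is no support. With it included, cd74a passed in 6 and ptprc in 4 of the 15 alternatives. The KIT row, a receptor of progenitors and pigment cells, held 2 and 41 counts among the non-vein libraries, none in vein, and was not tested.

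Of the 13 entries for kinases, phosphatases and adaptors, 4 of the 10 not listed for their fold (40%) were lower, and none was higher. The shares over all genes tested were 7.33% and 4.11%. GRAP2 encodes an adaptor of T cell receptor and other tyrosine kinase signals in mammals. GRAP2 stood at 172 and 128 CPM in non-vein, from 3163 and 2513 counts, and had no count in vein, at least 1540-fold lower. Its paralog grap2b stood at 88.7 and 83.8 CPM in non-vein and at 2.42 and 10.46 CPM in vein, 13.3-fold lower (log2 fold -3.73, SE 0.72, edgeR adjusted p = 0.0321). Leaving out vein library 1 gave -3.04 for grap2b and leaving out vein library 2 gave -5.16. GRAP2 was listed for its fold, so its lack of vein counts beside grap2b is no result about the paralogs.

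The TNFAIP8L2 genes encode lipid-binding regulators of immune cell activation. TNFAIP8L2 stood at 74.1 and 66.6 CPM in non-vein and at 2.94 and 3.95 CPM in vein, 20.4-fold lower (log2 fold -4.35, SE 0.38, edgeR adjusted p = 0.0120). tnfaip8l2a stood at 75.0 and 62.0 CPM in non-vein and at 2.48 and 5.74 CPM in vein, 16.6-fold lower (log2 fold -4.06, SE 0.52, edgeR adjusted p = 0.0160). Both paralogs had their groups apart, and the log2 fold of tnfaip8l2a was -4.79 without vein library 2. PTPN6 encodes a phosphatase that inhibitory receptors recruit to dampen activating signals. It stood at 61.1 and 54.9 CPM in non-vein and at 11.9 and 14.9 CPM in vein, 4.33-fold lower (log2 fold -2.11, SE 0.34, edgeR adjusted p = 0.0215). The call was lost without non-vein library 1 (edgeR adjusted p = 0.0691), as it was without vein library 1 (edgeR adjusted p = 0.0527), and the groups were apart in all 4 libraries.

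The tyrosine kinases of antigen and Fc receptor signalling, BTK and SYK, had low vein levels but did not pass the test. BTK stood at 70.6 and 49.2 CPM in non-vein and at 0.784 and 8.23 CPM in vein (log2 fold -3.73, SE 1.04, edgeR adjusted p = 0.0749). SYK stood at 49.5 and 20.3 CPM in non-vein and at 1.63 and 0 CPM in vein (log2 fold -5.41, SE 1.54, edgeR adjusted p = 0.0785). Each passed in 7 of the 15 alternatives, DESeq2 among them, with adjusted p = 0.000312 for BTK and 0.0002 for SYK. For BTK the higher vein library was library 2, and its log2 fold was -2.87 without vein library 1 (edgeR adjusted p = 0.0336) and -6.25 with vein library 1 kept and library 2 left out (edgeR adjusted p = 0.00754). For SYK it was library 1, and the log2 fold was -4.42 without vein library 2, while no vein count remained without library 1. INPP5D, a lipid phosphatase that limits signalling through phosphoinositide 3-kinase, stood at 29.3 and 19.9 CPM in non-vein and at 12.9 and 7.40 CPM in vein (log2 fold -1.27, SE 0.53, edgeR adjusted p = 0.181). rasal3, a Ras GTPase-activating protein of blood cells, stood at 35.2 and 31.3 CPM in non-vein and had no count in vein, at least 343-fold lower. Of the PRKCD entries, for a protein kinase C isoform, ENSDARG00000009208 was listed for its fold, so a contrast between them is no result. ENSDARG00000009208 stood at 41.8 and 19.4 CPM in non-vein with no count in vein, at least 312-fold lower (200-fold without non-vein library 1, 432-fold with library 2 left out instead). ENSDARG00000070651 stood at 7.55 and 1.83 CPM in non-vein and at 8.56 and 24.4 CPM in vein (log2 fold 1.81, SE 0.95, edgeR adjusted p = 0.274). The remaining entries of the role, PLCG2 and LYN, had log2 folds of -1.23 and -0.22 and did not pass the test.

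The regulators of the actin cortex and of integrin adhesion gave the most calls of any role. Without FMNL1, which was listed for its fold, all 12 entries had both vein libraries below both non-vein libraries, and 9 (75%) were called lower. Over all genes tested these shares were 33.1% and 7.33%. With FMNL1 the counts were 13 and 10 of 13. This role also held many of the abundant entries. Of 19 entries in any role with a non-vein mean of at least 50 CPM, 16 were lower, 1 was higher and 2 did not pass. The 16 include GRAP2, listed for its fold, and a cut on the non-vein level favours lower calls. Whether roles differ in calls beyond abundance was not tested. ARPC1B, the subunit of the actin-branching complex that prevails in blood cells, was the most abundant of the role. It stood at 1191 and 932 CPM in non-vein and at 110 and 189 CPM in vein, 7.10-fold lower (log2 fold -2.83, SE 0.33, edgeR adjusted p = 0.0151). LCP1, or L-plastin, bundles actin filaments in leukocytes. It stood at 992 and 637 CPM in non-vein and at 23.2 and 90.9 CPM in vein, 14.3-fold lower (log2 fold -3.84, SE 0.70, edgeR adjusted p = 0.0283). CORO1A, or coronin 1A, binds actin at the leukocyte cortex. It stood at 525 and 450 CPM in non-vein and at 16.9 and 35.2 CPM in vein, 18.7-fold lower (log2 fold -4.22, SE 0.42, edgeR adjusted p = 0.0144). rac2, the small GTPase needed for neutrophil migration in zebrafish, stood at 393 and 305 CPM in non-vein and at 33.2 and 46.0 CPM in vein. It was 8.80-fold lower (log2 fold -3.14, SE 0.29, edgeR adjusted p = 0.0124). In each of these genes non-vein library 1 was the highest library and vein library 1 the lowest. The log2 fold of LCP1 was -3.16 without vein library 1 and -5.14 when library 2 was left out, and that of CORO1A was -4.85 without vein library 2.

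The Wiskott-Aldrich genes link GTPase signals to actin branching in blood cells, and both were lower in vein. WAS stood at 199 and 187 CPM in non-vein and at 0 and 4.27 CPM in vein, 89.7-fold lower (log2 fold -6.49, SE 1.44, edgeR adjusted p = 0.0448). Its vein level came from vein library 2 alone, its log2 fold was -5.50 with vein library 1 left out, and no vein count remained without library 2. The call for WAS did not pass with DESeq2 (adjusted p = 0.0694). wasa stood at 106 and 131 CPM in non-vein and at 20.6 and 16.9 CPM in vein, 6.29-fold lower (log2 fold -2.65, SE 0.30, edgeR adjusted p = 0.0144). Here vein library 1 was the higher one, so the paralogs differed in which vein library held more.

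Kindlin-3, which FERMT3 encodes, activates integrins in blood cells and platelets. The FERMT3 entry ENSDARG00000030938 stood at 98.1 and 79.0 CPM in non-vein and at 18.0 and 17.2 CPM in vein, 5.02-fold lower (log2 fold -2.33, SE 0.30, edgeR adjusted p = 0.0157). The entry ENSDARG00000079267 stood at 37.9 and 21.7 CPM in non-vein and at 0.718 and 0.383 CPM in vein, 53.5-fold lower (log2 fold -5.74, SE 0.72, edgeR adjusted p = 0.0157). Both entries had about equal levels in the vein libraries compared with the gap between the groups. PLEK, or pleckstrin, is a protein kinase C substrate of platelets and leukocytes. It stood at 108 and 91.6 CPM in non-vein and at 7.90 and 17.7 CPM in vein, 7.79-fold lower (log2 fold -2.96, SE 0.46, edgeR adjusted p = 0.0207), and its log2 fold was -3.66 without vein library 2. FMNL1, a formin of blood cells, stood at 31.6 and 26.2 CPM in non-vein and had no count in vein, at least 298-fold lower. The entries that did not pass were less abundant. NCKAP1L, a subunit of the complex that activates branching in blood cells, stood at 12.4 and 27.9 CPM in non-vein and at 0 and 5.68 CPM in vein (log2 fold -2.83, edgeR adjusted p = 0.359). MYO1F, a membrane-bound myosin, stood at 4.13 and 6.71 CPM in non-vein and at 0 and 2.49 CPM in vein (log2 fold -2.12, edgeR adjusted p = 0.536). hcls1, a cortactin relative of blood cells, stood at 1.68 and 4.12 CPM in non-vein and at 0.653 and 1.02 CPM in vein (log2 fold -1.78, edgeR adjusted p = 0.422). Without vein library 2, NCKAP1L and MYO1F had no vein count left, so passing the test in that setting is no support. It was the only setting in which they passed, of 15 that gave a value for NCKAP1L and 13 for MYO1F.

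Granule and oxidase genes moved in both directions. srgn encodes serglycin, the proteoglycan core that packs proteases and cytokines in the secretory granules of blood cells and is also made by endothelial cells. It stood at 572 and 792 CPM in non-vein and at 1893 and 1892 CPM in vein, 2.77-fold higher (log2 fold 1.47, SE 0.22, edgeR adjusted p = 0.0200). The call passed in all 15 alternatives, and the vein libraries were nearly equal. cyba, the membrane subunit of the phagocyte oxidase, stood at 142 and 172 CPM in non-vein and at 14.3 and 35.1 CPM in vein, 6.34-fold lower (log2 fold -2.67, SE 0.48, edgeR adjusted p = 0.0274). Its log2 fold was -3.46 without vein library 2. NCF1, a cytosolic organizer of the same enzyme, stood at 26.8 and 28.3 CPM in non-vein and at 0 and 4.85 CPM in vein (log2 fold -3.50, SE 1.66, edgeR adjusted p = 0.232). The groups were apart. With vein library 2 left out no vein count remained, so passing in that setting is no support. NCF1 passed in 3 of the 15 alternatives, that one among them. The catalytic subunit gene cybb had no count in 3 libraries and 19 counts in vein library 2, and did not pass the filter. unc13d, which primes granules for release in mammalian lymphocytes, stood at 33.5 and 30.8 CPM in non-vein and had no count in vein, at least 332-fold lower. With 1 vein library in place of both, the bounds of the 7 entries at 0 in vein were lower by construction, from 147-fold for FMNL1 to 779-fold for GRAP2.

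None of the 3 neutrophil entries passed the test, and all 3 were higher in vein library 2 than in vein library 1. lyz encodes lysozyme C, a granule enzyme that cleaves bacterial cell walls. It stood at 666 and 633 CPM in non-vein and at 82.8 and 563 CPM in vein (log2 fold -1.01, SE 0.80, edgeR adjusted p = 0.475). Without vein library 2 the log2 fold of lyz was -2.97 (edgeR adjusted p = 0.00872), so 1 library decided that call. npsn, or nephrosin, is a metalloprotease of zebrafish neutrophils. It stood at 28.5 and 31.9 CPM in non-vein and at 9.60 and 57.8 CPM in vein, with a vein library on each side (log2 fold 0.16, SE 0.79, edgeR adjusted p = 0.929). Without vein library 2 its log2 fold was -1.66 (edgeR adjusted p = 0.0972). CSF3R, the receptor for granulocyte colony-stimulating factor, stood at 9.94 and 8.74 CPM in non-vein and at 0.457 and 2.42 CPM in vein (log2 fold -2.69, SE 1.08, edgeR adjusted p = 0.165). For CSF3R both vein libraries were below both non-vein libraries, unlike for npsn.

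Of the 9 macrophage entries, 2 passed the filter and 1 of these was lower. csf1rb encodes a receptor for colony-stimulating factor 1, which macrophages need. It stood at 72.5 and 60.0 CPM in non-vein and at 0.0653 and 1.79 CPM in vein, 70.8-fold lower (log2 fold -6.15, SE 1.15, edgeR adjusted p = 0.0299). The vein level came from 1 count in library 1 and 28 in library 2, and the log2 fold was -5.21 without vein library 1 and -9.84 when library 2 was left out. Its paralog csf1ra, the one known from zebrafish pigment cells as well as macrophages, had no count in any library. The other entry tested, c1qc, a chain of the first complement component, had 0, 23, 54 and 20 counts in non-vein libraries 1 and 2 and vein libraries 1 and 2 (log2 fold 2.02, SE 2.06, edgeR adjusted p = 0.590). The other complement chains were nearly undetected, with no count for c1qa in any library and 16 counts for c1qb in non-vein library 1 alone. marco, a scavenger receptor, had 22 counts in non-vein library 2 and none elsewhere.

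MPEG1 encodes perforin-2, a pore-forming protein whose promoter marks zebrafish macrophages, and the name table gave it to 3 rows. ENSDARG00000043093 had 13 and 5 counts in the non-vein pair, against 0 and 2 in the vein pair. ENSDARG00000055290 had 224 counts in vein library 1, or 14.6 CPM, and none in the other 3 libraries. ENSDARG00000078569 had no count in any library. How the counting split reads among rows of this name is not known, so the MPEG1 rows are uncertain one by one. Apart from csf1rb, no macrophage entry was above 5 CPM in any non-vein library.

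Summed over a class, the 3 groups of genes gave different pictures, and the sums are given without a test. With 2 against 2 libraries the smallest p of an exact two-sided permutation test is 0.333. The 41 pan-leukocyte entries summed to 5855 and 5207 CPM in non-vein and to 2225 and 2505 CPM in vein, and srgn made up most of the vein sum. Without srgn the sums were 5282 and 4415 CPM in non-vein and 332 and 613 CPM in vein, or 9.74% of the non-vein mean. The 3 neutrophil entries summed to 705 and 673 CPM in non-vein and to 92.9 and 623 CPM in vein. The 9 macrophage entries summed to 74.1 and 62.5 CPM in non-vein and to 18.2 and 3.19 CPM in vein, where ENSDARG00000055290 gave most of the sum of vein library 1. Vein library 2 was thus 6.71 times library 1 for neutrophil entries, 1.85 times for pan-leukocyte entries without srgn, and 0.175 times for macrophage entries. The neutrophil sum was mostly lyz, though all 3 entries were higher in library 2. The macrophage ratio was set by ENSDARG00000055290 and does not describe the class. csf1rb ran the other way, at 0.0653 CPM in vein library 1 and 1.79 CPM in library 2.

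A difference between the vein libraries was also present in single entries and in some of the other lists. Of the 27 entries with counts in both vein libraries, 18 were higher in library 2, with a median ratio of 1.71, against a median of 1.0 over 13930 tested genes of all kinds. Over the 53 entries, tested or not, 28 were higher in library 2 and 11 in library 1. Of these 28, 10 had no count in vein library 1. Over all genes tested, 50.4% were higher in library 2. Of the vein libraries, library 1 alone was at 0 in 8 tested entries and in 1070 of all genes tested. Library 2 alone was at 0 in 1 tested entry and in 447 of all genes tested. Summed erythroid markers were 1108 and 2130 CPM in vein libraries 1 and 2, beside 1592 and 1361 CPM in non-vein. Summed pigment cell markers were 28.4 and 140 CPM in vein, beside 98.4 and 110 CPM in non-vein. Summed thrombocyte markers were 120 and 200 CPM in vein, beside 235 and 222 CPM in non-vein. Each of these 3 lists was higher in vein library 2 than in library 1. Other lists differed less between the vein libraries. Library 2 was at 1.24 times library 1 for lymphocyte receptor signalling and 1.02 times for other macrophage genes. It was at 1.06 times for other leukocyte signalling and for stromal and mural markers. For other neutrophil genes it was at 0.84 times, but CD63 made up most of that sum and sets the ratio. By row, 11 of those 21 rows were higher in library 2 and 7 in library 1. By gene, 1 of 11 erythroid, 1 of 8 pigment cell and 2 of 7 thrombocyte markers tested were lower in vein, and 1 thrombocyte marker was higher. Over all genes tested, 7.33% were lower and 4.11% were higher. No erythroid marker was without a vein count, whereas itga2b of the thrombocyte list and pnp4a and a MITF row of the pigment list had counts in non-vein alone, and an ITGB3 row, XDH and ltk had none in any library. Summed endothelial markers ran the other way, with 21900 and 18910 CPM in vein and 4310 and 6388 CPM in non-vein, and 11 of 19 were higher in vein. The endothelial list and its sum include kdrl and lyve1b, the genes behind the reporters used to sort the cells. They are therefore not independent of the sort. The part of these other cell types in the leukocyte values was not tested.

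**Figure D3:**
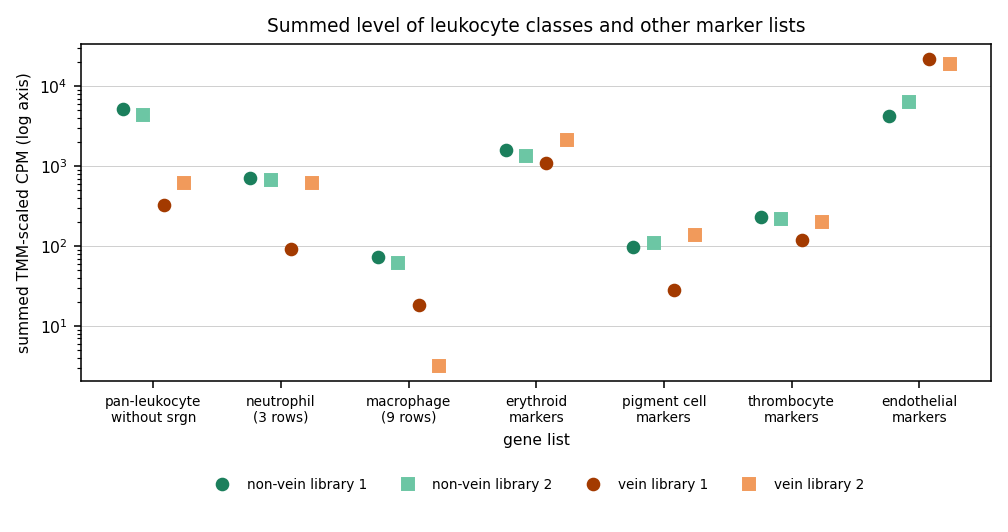
Summed TMM-scaled CPM (log axis) of the pan-leukocyte entries without srgn, the neutrophil and the macrophage entries and 4 lists of markers of other cell types, with 1 symbol per library. Neutrophil entries sum to 92.9 CPM in vein library 1 and 623 CPM in vein library 2, and endothelial markers are highest in the vein libraries.

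Other genes of the same pathways were mostly at lower levels in vein as well. Their lists were drawn up by function, but with earlier results of these data known, so they are no independent check. Of 28 other leukocyte signalling rows, 22 were tested and 7 (31.8%) were lower, with none higher and a median log2 fold of -3.17. Over all genes tested the share lower was 7.33%. arhgdig stood at 965 and 1053 CPM in non-vein and at 270 and 283 CPM in vein (log2 fold -1.87, edgeR adjusted p = 0.0144). PIK3CD, the leukocyte phosphoinositide 3-kinase, had 329 and 465 counts in non-vein and none in vein, at least 215-fold lower (edgeR adjusted p = 0.0157). WIPF1, which holds the Wiskott-Aldrich protein stable, stood at 61.3 and 71.4 CPM in non-vein and at 5.55 and 2.42 CPM in vein (log2 fold -4.06, edgeR adjusted p = 0.0158). All 3 had their groups apart, with a log2 fold of -4.77 for WIPF1 without vein library 1. The count of 7 was 3 without non-vein library 2, 4 with the replicate number as a block and 12 with DESeq2. Lymphocyte receptor signalling had 20 rows, of which 12 had no vein count, cd79b, RAG1 and il7r had no count in any library, and 2 of 8 tested were lower. IKZF1, or Ikaros, stood at 139.7 and 107.5 CPM in non-vein and at 8.29 and 7.72 CPM in vein (log2 fold -3.95, SE 0.31, edgeR adjusted p = 0.0104). il2rga, the common cytokine receptor chain, stood at 88.1 and 112 CPM in non-vein and at 0 and 2.74 CPM in vein (log2 fold -6.17, edgeR adjusted p = 0.0455). For il2rga the call was lost without non-vein library 2 (edgeR adjusted p = 0.0526) and with DESeq2 (adjusted p = 0.0683), and its log2 fold was -5.19 without vein library 1.

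Further neutrophil and macrophage genes were mixed. Of 16 other neutrophil rows tested, 2 (12.5%) were lower and 1 (6.25%) was higher, with a median log2 fold of -0.29. The shares over all genes tested were 7.33% lower and 4.11% higher, so these counts are not far from them. The LECT2 row ENSDARG00000090889, a leukocyte chemotactic factor, stood at 95.1 and 127 CPM in non-vein and at 14.1 and 16.5 CPM in vein (log2 fold -2.86, edgeR adjusted p = 0.0144). CD63, a granule and endosome membrane protein of many cell types, stood at 1029 and 1293 CPM in non-vein and at 4298 and 3431 CPM in vein (log2 fold 1.74, edgeR adjusted p = 0.0157). CD63 was thus called higher, as srgn was. Of 9 other macrophage rows tested, 2 (22.2%) were lower. il10ra, a receptor chain for interleukin 10, stood at 24.5 and 20.99 CPM in non-vein and at 0.784 and 0.446 CPM in vein (log2 fold -5.19, edgeR adjusted p = 0.0167). itgb2, the integrin chain shared by leukocyte integrins, stood at 23.9 and 26.9 CPM in non-vein and at 3.20 and 1.28 CPM in vein (log2 fold -3.50, edgeR adjusted p = 0.0334). The itgb2 call was lost without non-vein library 1 (edgeR adjusted p = 0.0825) or 2 (edgeR adjusted p = 0.0831), and its log2 fold was -4.31 without vein library 1.

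Compared per length, in FPKM, the most abundant leukocyte entries of the non-vein libraries were lyz (mean 1111 FPKM), ARPC1B (774 FPKM), laptm5 (672 FPKM) and srgn (506 FPKM). In the vein libraries srgn came first (mean 1312 FPKM), followed by lyz (513 FPKM), ARPC1B (102 FPKM) and laptm5 (34.0 FPKM). The vein mean of lyz comes mostly from vein library 2.

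Many leukocyte genes have a relative that most cells use for the same step, and none of those tested was called lower in vein. Of 32 such rows, 25 were tested, of which 4 (16%) were higher in vein, with a median log2 fold of 1.08. The list of relatives, too, was chosen with earlier results of these data known. The shares over all genes tested were 7.33% lower and 4.11% higher. With 25 rows tested, an absence of lower calls is not far from the first of these shares. The small GTPase rac2 had 243 and 190 FPKM in non-vein and 19.4 and 26.0 FPKM in vein. Its widely used relative rac1a had 30.4 and 43.3 FPKM in non-vein and 97.3 and 91.0 FPKM in vein (log2 fold of counts 1.45, SE 0.27, edgeR adjusted p = 0.0288). The order of the pair was thus the opposite in the 2 groups. ARPC1B had 867 and 681 FPKM in non-vein and 78.3 and 126 FPKM in vein. ARPC1A, the other form of that subunit, had 22.9 and 39.0 FPKM in non-vein and 81.9 and 83.0 FPKM in vein (log2 fold of counts 1.51, SE 0.32, edgeR adjusted p = 0.0403). The pair was far apart in non-vein and close together in vein. WAS had 117 and 112 FPKM in non-vein and 0 and 2.35 FPKM in vein. The WASL row ENSDARG00000006283, the form of most tissues, had 4.29 and 7.43 FPKM in non-vein and 25.9 and 26.1 FPKM in vein (log2 fold of counts 2.25, SE 0.37, edgeR adjusted p = 0.0235). WASL passed in all 15 alternatives. The fourth, CTTN, or cortactin, the relative of hcls1, had a log2 fold of 2.04 (counts, SE 0.38, edgeR adjusted p = 0.0296). Calls of 3 of these genes were lost on leaving out a library. Without non-vein library 1 the edgeR adjusted p was 0.0589 for rac1a, 0.0778 for ARPC1A and 0.0831 for CTTN. Without vein library 1 it was 0.0715, 0.0799 and 0.0612 in that order, and without vein library 2 it was 0.0523 for rac1a and 0.0726 for ARPC1A. The number of higher rows was 1 on leaving out non-vein library 1 or vein library 1, and 7 without non-vein library 2.

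Among the 21 relatives tested and not called, some had log2 folds near 0, others had positive ones and 3 had negative ones. Those 3 were coro1b (log2 fold -1.27), the CORO1C row ENSDARG00000021193 (-1.08) and INPPL1 (-0.32). CORO1A had 295 and 259 FPKM in non-vein and 9.12 and 18.6 FPKM in vein, while the CORO1C row ENSDARG00000035598 had 32.8, 34.9, 34.0 and 33.02 FPKM in the 4 libraries in that order (log2 fold of counts 0.16). LCP1 had 443 and 291 FPKM in non-vein and 9.92 and 38.1 FPKM in vein, while PLS3, or T-plastin, had 17.1, 11.5, 16.8 and 19.6 FPKM (log2 fold of counts 0.50). laptm5 had 683 and 661 FPKM in non-vein and 15.97 and 52.1 FPKM in vein, while LAPTM4A had 29.8, 46.8, 30.9 and 50.03 FPKM (log2 fold of counts 0.18). GRB2 and grb2b, the general adaptors akin to GRAP2, had log2 folds of 0.21 and 0.13. Higher in vein without passing the test were LAPTM4B (log2 fold 2.51), the second WASL row ENSDARG00000014113 (2.50), ptpn11b (1.76), MYO1E (1.44), NCKAP1 (1.24) and FERMT2 (1.08). A relative that did not pass the test is not shown to be equal between the groups.

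**Figure D4:**
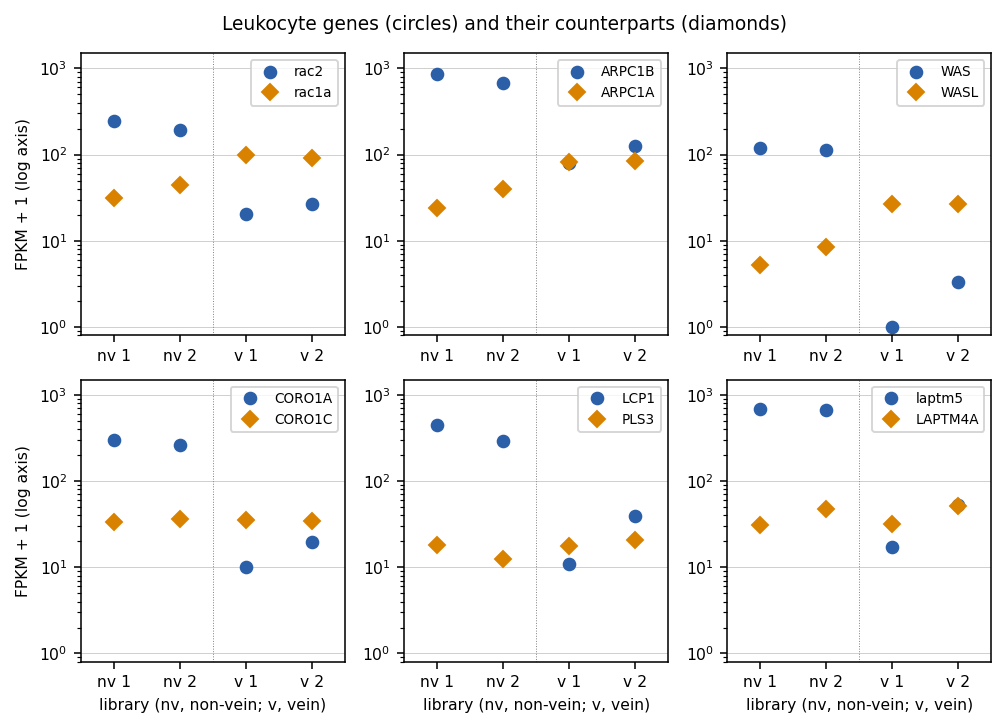
FPKM + 1 (log axis) of 6 leukocyte genes (circles) and a broadly expressed relative of each (diamonds) in non-vein libraries nv 1 and nv 2 and vein libraries v 1 and v 2. Circles are above diamonds in every non-vein library, rac2, WAS and CORO1A are below their relatives in both vein libraries, and ARPC1B, LCP1 and laptm5 are below theirs in vein library 1 alone.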

How the data were processed

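Per the labels' protocols, mRNA of the sorted cells was enriched, turned into libraries with NEBNext Ultra reagents and sequenced on Illumina NovaSeq. RSEM, HISAT2, StringTie 1.3.1, Bowtie2 2.2.8, fastp 0.18.0, DESeq2 and the build GRCz11 are listed in the submitters' processing notes, with no role for each. The table of estimated counts was deposited by the authors. Although its columns are named for FPKM per the file headers, they hold whole numbers with a different total in each library, so they were used as rounded estimated counts. A second table holds FPKM deposited by the authors, used for levels between genes and for alternatives. No source used here says whether counting used strand, so reads of overlapping antisense genes cannot be told apart.

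Gene names came from the name table given with the data, which names 23608 of 25522 Ensembl rows. The other 2824 rows are assembled loci with no name. A row named EPX, ENSDARG00000019521, with 184, 30, 15 and 96 counts in the non-vein and then the vein libraries, was not taken for mpx. Whether it is that gene could not be settled by name, and the neutrophil entries would be 4 if it were. Counts of all rows were fitted together with edgeR 4.0.16 under R 4.3.3, with TMM scaling, a filter of 10 counts (filterByExpr), the quasi-likelihood test of vein against non-vein and Benjamini-Hochberg adjustment over the 15953 genes left. Standard errors are the absolute log2 fold divided by the square root of F. The common biological coefficient of variation was 0.699. Alternatives used DESeq2 1.42.0, limma 3.58.1 on log2(FPKM + 1) and log2(FPKM + 0.1), other filters and scalings, and each library left out in turn. Scripts were tested on simulated data. Sequences of the genes were not used here.

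Every member is accounted for. Values and tests are printed for each member past the threshold and for up to 3 others per role by mean level, and up to 3 changed genes per further pathway list in order of adjusted p. Marker lists of other cell types are given by counts and sums. Of the genes this rule names, 1 is not reported here. The members and lists were chosen with earlier results of these data known, and 7 members for their folds in these libraries.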

Additional observations from a re-analysis of the deposited data

How the results depend on the processing

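With 2 libraries a group and a biological coefficient of variation of 0.699, an entry that did not pass is not shown to be equal between the groups. Leave-one-out fits assume that the lone library varies like the other group, and exact 0 counts limit folds to bounds.

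The lower entries numbered 22 to 32 with 1 library left out, 15 to 25 without the 7 listed for their fold, 29 with edgeR's newer quasi-likelihood method and 27 with DESeq2. Higher entries numbered 1 to 2 with 1 library left out and 2 with no filter. The median log2 fold of all entries tested, the 7 included, was -5.16 to -2.92 with 1 library left out. It was -2.96 with limma on log2(FPKM + 1) and -2.41 with no filter on it. With 1 library left out, the log2 ratio of sums was -1.31 to -1.14 for pan-leukocyte entries with srgn (-1.23 with all 4). Without srgn, which made up most of their vein sum, it was -3.87 to -2.98 (-3.36 with all 4). For neutrophil entries it was -2.89 to -0.14 (-0.94 with all 4), and for macrophage entries -4.42 to -1.91 (-2.67 with all 4).

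Over all genes, 656 higher and 1170 lower became 1618 and 2319 with DESeq2, and 1332 and 1881 with the newer edgeR method. With limma they were 1163 and 2137 on log2(FPKM + 1), and 333 were higher with no filter. There were 1769 lower with a pseudocount of 0.1, 1092 higher with no count filter, and 408 to 942 higher and 622 to 1313 lower with 1 library left out.

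Deviations of same-numbered libraries were nearly uncorrelated across genes (r = 0.0407). With 2 libraries a group the deviations mirror each other, so crossed numbers gave r = -0.0407. This value cannot tell whether same-numbered libraries shared a sort or batch that affected some genes. With the replicate block, 454 genes were higher and 716 lower, and 22 entries were lower, 15 without the 7. The median log2 fold of all entries tested, the 7 included, was -4.10. WAS had edgeR adjusted p = 0.0619, and 2 of the broadly expressed relatives were higher.

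Direction changed for IRF8 (0.15 without non-vein library 1, 0.79 without vein library 1; range with 1 library left out -8.07 to 0.79), LYN (0.33 without vein library 2) and npsn (-0.45 with limma on log2(FPKM + 1), filtered or not, -0.49 with 0.1, -0.34 with the replicate block, and -1.66 to 0.93 with 1 library left out, the lowest without vein library 2). None of these 3 passed the test with all libraries, and the cause was not tested. FMNL1 lost its call with unfiltered limma (adjusted p = 0.0575). Of the 19 entries not called, 9 passed in at least 1 alternative. For NCKAP1L, MYO1F and lyz the only pass came with vein library 2 left out.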
